A study of Arabidopsis thaliana with 8 samples.

Results

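The trans-acting siRNA (TAS) genes TAS1a, TAS1b, TAS1c, TAS2 and TAS3a of Arabidopsis thaliana are described here by the small RNAs counted at them in phloem exudates. Of the 20347 loci in the deposited count table, 10 were chosen because they overlap one of these 5 genes by at least 100 nt and are not annotated miRNA precursors. The choice used position only, not the counts. The exudates came from wild-type Columbia-0 (Col-0) seedlings that had spent 11 days on 1/2 MS medium with iron. The seedlings were then moved for 3 days to 1/2 MS medium without iron (−Fe, 4 libraries) or to fresh 1/2 MS medium with iron (+Fe, 4 libraries). Many rosettes were pooled for each library, and sap from the severed hypocotyls was collected after EDTA treatment. Each library is labelled as a separate biological replicate. The comparison asks whether the small RNAs of these genes in phloem sap differ between iron-deficient and iron-sufficient plants.

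TAS genes are transcribed into long non-coding RNAs that are cleaved by a miRNA-guided Argonaute protein. The cleaved RNA is made double-stranded by RDR6 with SGS3, and DCL4 then slices it in register from the cleavage site into phased siRNAs, called tasiRNAs. The miRNA miR173 triggers TAS1 and TAS2, whose tasiRNAs act on mRNAs of pentatricopeptide repeat (PPR) proteins and of the HEAT-INDUCED TAS1 TARGET (HTT) family. The miRNA miR390, bound by AGO7, triggers TAS3, whose tasiRNAs act on mRNAs of the auxin response factors ARF2, ARF3 and ARF4 and help to set leaf polarity and the timing of the juvenile-to-adult transition. The tasiRNAs of TAS3 are known to move between cells within the leaf.

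Library totals lay between 10347644 and 14116739 counts. Loci at tRNA and rRNA genes took 77.0% to 85.4% of the counts of a library. The +Fe replicates 2 and 4 had counts at 12117 and 11269 loci, against 14214 to 16201 in each of the other 6 libraries, and the edgeR test was therefore also run without these 2 libraries. Markers of the labelled tissue were nearly absent. Of 4 phloem genes, only SUC2, the sucrose transporter of companion cells, had a locus in the table, with 13 counts in all. Loci at all 7 mesophyll genes checked (Rubisco small subunits, LHCB1 antenna proteins and Rubisco activase) had counts, with a summed level of 155 to 278 CPM (counts per 1000000 counts in the library) in −Fe and 133 to 331 CPM in +Fe. Such fragments of mRNA describe the sources of RNA only loosely.

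Each TAS gene was present in the table as 2 loci, one carrying the name of the gene and one a numbered small RNA cluster that overlaps it (coordinates as deposited, with TAIR10 named in the submitters' processing notes). All 5 genes are annotated as non-coding RNA genes. TAS1a lies at chr2:11721539-11722468, and cluster ath-b10r1-5567 at chr2:11720704-11722587 encloses it. TAS1b lies at chr1:18549204-18550042 inside cluster ath-b10r1-18294 (chr1:18547706-18550046). TAS1c and TAS2 are neighbours on chromosome 2, at chr2:16537288-16538277 and chr2:16539384-16540417, and are enclosed by the adjacent clusters ath-b10r1-6240 (chr2:16536771-16538286) and ath-b10r1-6241 (chr2:16539088-16540443). TAS3a, at chr3:5861491-5862437, differs from the others. Its cluster ath-b10r1-7525 (chr3:5861859-5862610) is displaced, sharing 579 nt of the 947 nt of the gene and reaching 173 nt beyond it, and this is the smallest overlap among the chosen loci. No locus other than a miRNA precursor had a smaller, non-zero overlap with a TAS gene. The precursor of miR5636 (78 nt) lies within TAS1b and was left out by name.

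**Figure D1:**
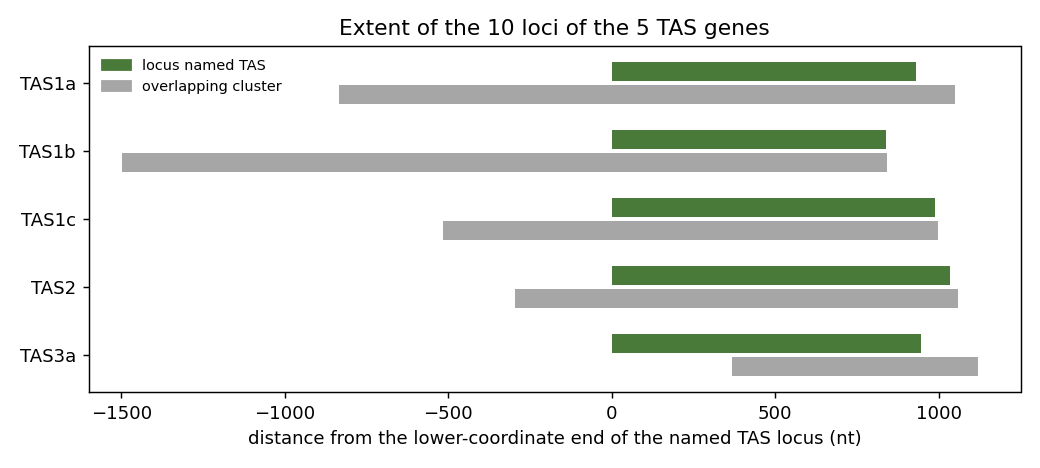
Position of the 5 loci named TAS (green) and of the cluster overlapping each (grey), in nt from the lower-coordinate end of the named locus. The clusters of TAS1a, TAS1b, TAS1c and TAS2 reach 835, 1498, 517 and 296 nt below the named locus, while that of TAS3a starts 368 nt inside it.

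Both loci of a pair held nearly the same counts. The cluster of TAS1a had 28207 counts over the 8 libraries, against 28197 at the named locus, and the cluster of TAS2 had 77015, against 77012. For TAS1c the cluster held 120049 counts, against 119967 at the named locus. The extra 82 counts came from only 2 libraries, with 60 of them in +Fe replicate 4 and 22 in −Fe replicate 1. The TAS3a pair had 14354 counts each and identical counts in 6 libraries, although the cluster covers only part of the gene. TAS1b was the exception. Its cluster had 5612 counts and the named locus 5284, a difference of 5.84% of the cluster's counts that was spread over all 8 libraries (12 to 75 counts each). Since the pairs count the same reads, each gene is represented below by its named locus, and the clusters are given where they differ. The 3 TAS1 genes are related in sequence, and without the reads it was not tested how reads that match more than one of them were divided, so the level of a single TAS1 gene is less certain than their sum. The table gives neither read lengths nor strands, so a count need not be a tasiRNA, and TAS1c overlaps the end of the protein-coding gene AT2G39670.

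The 5 named loci held 244814 counts, or 0.253% of the 96628856 counts in the table, and TAS1 with TAS2 made up 94.1% of them. Outside tRNA, rRNA, miRNA, snRNA and snoRNA loci, with the other TAS loci set aside, TAS1c ranked 13 by counts and TAS2 ranked 14 among 19085 loci. TAS1a ranked 19 and TAS3a 37. TAS1b, which holds the miR5636 precursor, was itself classed as a miRNA locus. Its counts would place it at 160 beside the 19084 loci of this set. Among the 325 miRNA precursors, only 3 had more counts than TAS1c or TAS2, while 12 exceeded TAS1a, 15 exceeded TAS3a and 27 exceeded TAS1b.

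Levels of different genes were compared as CPM per kb of gene length. TAS1c was the highest, with 1275 ± 256 CPM per kb (SD, n = 8), followed by TAS2 with 782 ± 165, TAS1a with 319 ± 59.5, TAS3a with 158 ± 22.9 and TAS1b with 66.2 ± 17.9. This order was the same in every library. TAS1c exceeded TAS2 by 1.36- to 1.97-fold within a library and TAS2 exceeded TAS1a by 2.01- to 2.82-fold. TAS1a exceeded TAS3a by 1.61- to 2.36-fold, and TAS3a exceeded TAS1b by 2.07- to 3.30-fold. Only TAS1c and TAS2 had ranges over the libraries that overlapped, at 934 to 1714 and 543 to 1041 CPM per kb. The places of TAS1a and TAS3a depended on the length used. With the length of the cluster (1884 nt for TAS1a, 752 nt for TAS3a), TAS3a had 199 ± 28.8 CPM per kb and TAS1a 157 ± 29.4.

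**Figure D2:**
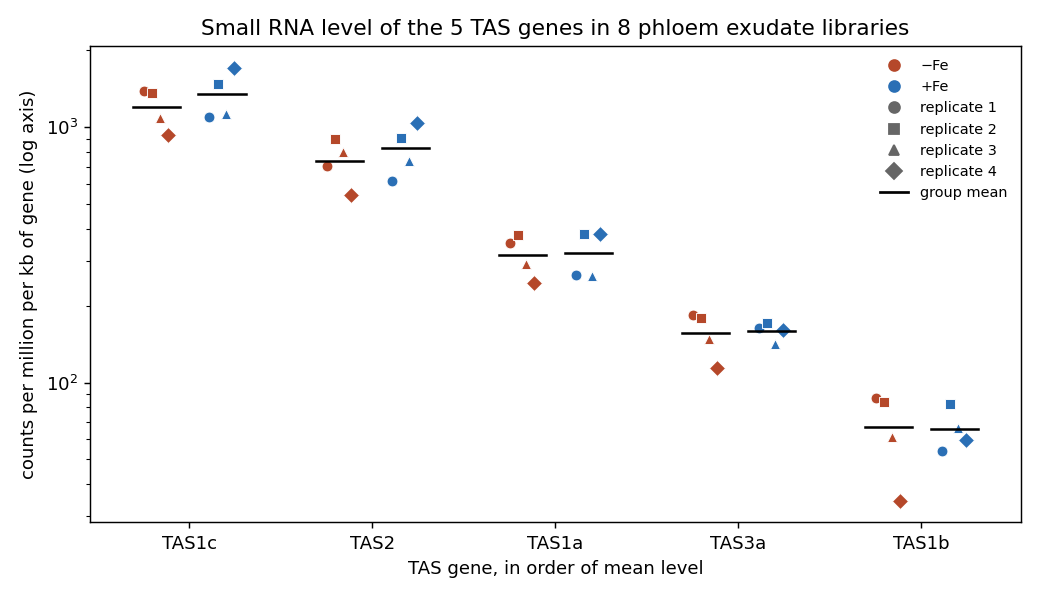
Level of each TAS gene (CPM per kb of gene, log axis) in the 4 −Fe libraries (red, left) and the 4 +Fe libraries (blue, right), one symbol per replicate, with the group mean as a line. The genes stand in steps from TAS1c (1275 CPM per kb over the 8 libraries) to TAS1b (66.2), and the groups overlap at every gene.

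At none of the 10 TAS loci was a difference between −Fe and +Fe larger than the spread between replicates, and all 10 had passed the filter of at least 10 counts. A locus was called where the adjusted p of edgeR's quasi-likelihood test (Benjamini-Hochberg, over 17722 loci) was under 0.1 and the log2 fold change was 0.5 or more in either direction. By this rule 0 of the 10 TAS loci and 0 of all tested loci were called (0%). At an unadjusted p under 0.05, again 0 of the 10 TAS loci passed, where 6.69% of all tested loci did (1186 loci, with 4.86% higher and 1.83% lower in −Fe). DESeq2 gave 0 TAS loci by either criterion and 34 calls among all loci, and edgeR without +Fe replicates 2 and 4 gave 0 TAS loci and 5 calls, with log2 fold changes of 0.37 for TAS1a, 0.24 for TAS1b, 0.21 for TAS1c, 0.23 for TAS2 and 0.12 for TAS3a. At none of the 10 loci were the CPM values of the groups separate, while they were at 2.96% of all tested loci. The paper describes exudate RNA as acellular, so these counts are shares of the RNA in sap. They cannot tell apart less RNA released per cell, fewer cells that supply it and more of other RNA. This holds here and in the comparisons that follow.

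TAS1c, the TAS1 gene with the most counts, had 1378, 1355, 1079 and 925 CPM in −Fe replicates 1 to 4, against 1087, 1462, 1119 and 1697 CPM in +Fe replicates 1 to 4. The groups overlapped. The lowest value was that of −Fe replicate 4, and +Fe replicate 4 had the highest. TAS1c averaged 1184 ± 220 CPM in −Fe and 1341 ± 292 CPM in +Fe (SD, n = 4 each; exact permutation p = 0.371, two-sided). The fitted log2 fold change, −Fe over +Fe, was 0.03 ± 0.204 (SE; edgeR adjusted p = 0.998), with a 95% interval of −0.39 to 0.45, or 0.762- to 1.36-fold. Differences within this interval were not excluded by these replicates.

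TAS1a had 327, 351, 271 and 227 CPM in −Fe, against 246, 354, 242 and 354 CPM in +Fe. In −Fe the lowest value was again that of replicate 4, and in +Fe the values formed a lower pair (replicates 1 and 3) and a higher pair (replicates 2 and 4). The means were 294 ± 55.7 CPM in −Fe and 299 ± 63.5 CPM in +Fe (exact permutation p = 0.829), and the log2 fold change was 0.18 ± 0.199, with a 95% interval of −0.23 to 0.59. TAS1b, the lowest of the 3 TAS1 genes, had 73.3, 70.5, 51.3 and 28.9 CPM in −Fe, against 45.3, 69.1, 55.8 and 49.9 CPM in +Fe. The −Fe group held both the highest and the lowest value, so that the +Fe values lay within its range. Its means were 56.0 ± 20.5 CPM in −Fe and 55.0 ± 10.3 CPM in +Fe (exact permutation p = 0.914), and the log2 fold change was 0.20 ± 0.234, with a 95% interval of −0.28 to 0.68. The cluster that encloses TAS1b had a mean of 58.6 CPM in −Fe and 59.4 CPM in +Fe, the opposite order from the named locus.

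TAS2, the second target of miR173, had 731, 932, 830 and 562 CPM in −Fe, against 638, 942, 761 and 1076 CPM in +Fe. As for TAS1c, −Fe replicate 4 was lowest and +Fe replicate 4 highest, and the other 6 libraries were interleaved. TAS2 averaged 764 ± 158 CPM in −Fe and 854 ± 194 CPM in +Fe (exact permutation p = 0.457). The log2 fold change was 0.04 ± 0.197, with a 95% interval of −0.37 to 0.44.

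TAS3a, the source of the ARF-directed tasiRNAs, had 174, 170, 140 and 108 CPM in −Fe, against 155, 162, 135 and 153 CPM in +Fe. The +Fe values were close together and lay inside the −Fe range. TAS3a averaged 148 ± 30.9 CPM in −Fe and 151 ± 11.6 CPM in +Fe (exact permutation p = 0.886). Its log2 fold change was 0.15 ± 0.202, with a 95% interval of −0.26 to 0.57. For each of the 5 genes the edgeR adjusted p was 0.998.

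**Figure D3:**
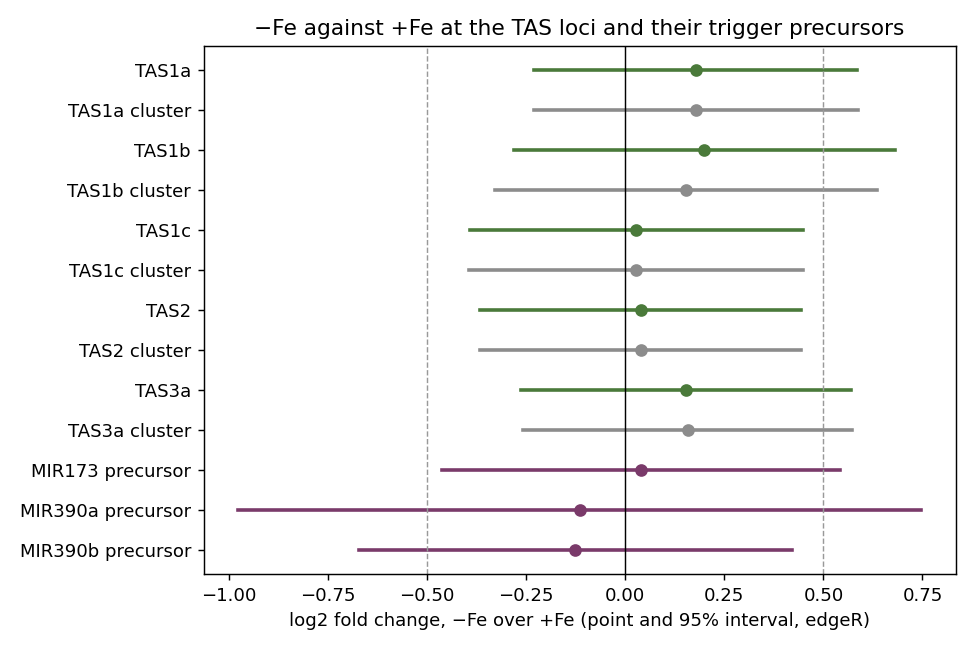
Log2 fold change, −Fe over +Fe, with its 95% interval from edgeR, for the named TAS loci (green), their clusters (grey) and the trigger precursors (purple), with dashed lines at −0.5 and 0.5. All 13 intervals include 0, and among the named TAS loci the estimates lie between 0.03 and 0.20.

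The sign of these small differences depended on how the libraries were scaled. With TMM factors, which ranged from 0.743 in −Fe replicate 4 to 1.17 in −Fe replicate 2, all 5 log2 fold changes were positive, as were 53.4% of those of all tested loci, whose median was 0.07. With library totals in place of TMM, the median of all loci was −0.12 and the values were −0.024 for TAS1a, −0.18 for TAS1c, −0.16 for TAS2 and −0.030 for TAS3a, while that of TAS1b stayed above 0. On library totals, −Fe replicate 4 was the lowest of the 8 libraries at all 5 genes. It was also the library with the highest share of tRNA and rRNA loci (85.4%), and the part of that share in the low values was not tested. On the TMM scale it was the lowest library at TAS1b only.

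In the makeup of the TAS counts, the shares of TAS1c, TAS2 and TAS1a varied little between libraries. Their coefficients of variation over the 8 libraries were 4.07%, 7.57% and 6.11%. Those of TAS3a and TAS1b were larger, at 12.7% and 20.0%, and the TAS3a share ran from 4.59% to 7.16%. TAS1c supplied 49.0% ± 2.00 of the counts of the 5 genes (SD, n = 8), TAS2 31.4% ± 2.38, TAS1a 11.5% ± 0.705, TAS3a 5.89% ± 0.746 and TAS1b 2.15% ± 0.430. The share of TAS2 ran from 27.2% in −Fe replicate 1 to 35.0% in −Fe replicate 3, so that its widest difference lay within the −Fe group. The share of TAS1a was 12.0% ± 0.406 in −Fe and 11.1% ± 0.625 in +Fe, with overlapping groups, as the value of −Fe replicate 3 (11.4%) lay below that of +Fe replicate 2 (11.8%). TAS1b was the most variable in relative terms, at 1.56% in −Fe replicate 4 and 1.50% in +Fe replicate 4, against 2.09% to 2.73% in the other 6 libraries. Per count at TAS1c, TAS2 had 0.531 to 0.769 counts in −Fe and 0.586 to 0.680 in +Fe, and TAS1a had 0.237 to 0.259 in −Fe and 0.209 to 0.242 in +Fe.

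**Figure D4:**
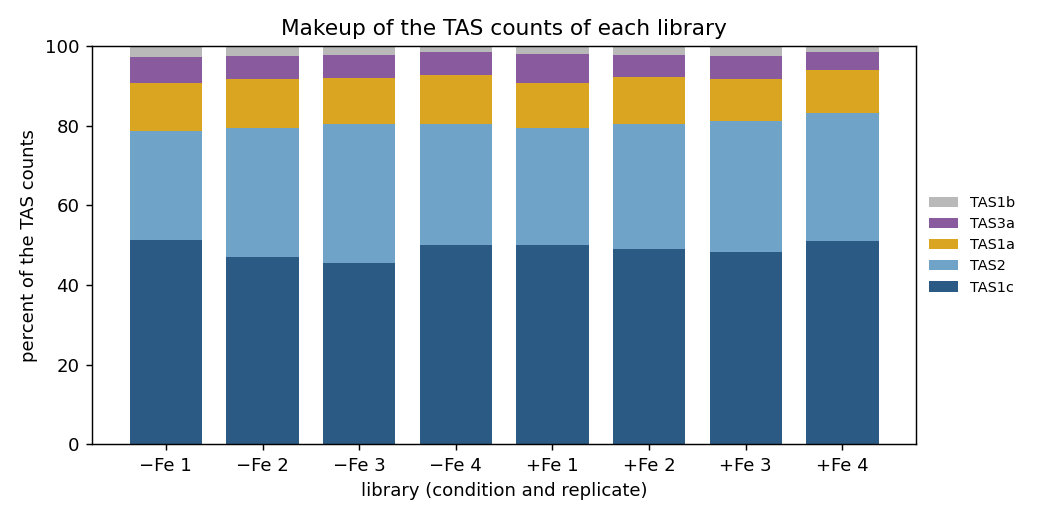
Share of each TAS gene in the summed counts of the 5 named TAS loci (percent, stacked), for −Fe replicates 1 to 4 and then +Fe replicates 1 to 4. TAS1c and TAS2 together fill most of every bar, and TAS2 reaches its lowest (27.2%) and highest (35.0%) share in 2 −Fe libraries.

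The 5 genes also moved together between libraries. Over the 8 libraries, Pearson's r of log2(CPM + 1) between pairs of TAS genes ran from 0.57 (TAS2 and TAS3a) to 0.93 (TAS1a and TAS1c). All of these values share the library total, so they describe the libraries and are not independent observations. The within-group coefficient of variation (CV) of the CPM was 15.6% for TAS3a, 20.1% for TAS1a, 20.4% for TAS1c, 21.8% for TAS2 and 29.2% for TAS1b. Among other loci within 2-fold of the same mean level, the median CV was 24.3%, 22.6%, 26.6%, 22.5% and 27.2%, in the same order of genes. Counting error alone gives a CV of 0.751% to 0.906% in a library at TAS1c and 3.35% to 5.12% at TAS1b, and the rest of the spread between replicates was not divided further. Reads without molecular identifiers are not independent molecules, and such figures cover counting error only. On the TMM scale the CV was 11.9% for TAS2 and 13.4% for TAS1a, against medians of 24.1% and 24.8% at loci of like level, and 24.0% for TAS1b, against 21.5%.

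The share of the 5 genes in a library was 0.257% ± 0.0484 over the 8 libraries (SD), with 0.245% ± 0.0449 in −Fe and 0.270% ± 0.0551 in +Fe (n = 4 each). It was 0.268%, 0.288%, 0.237% and 0.185% in −Fe replicates 1 to 4, against 0.217%, 0.299%, 0.231% and 0.333% in +Fe replicates 1 to 4. The highest library exceeded the lowest by 1.80-fold, and the groups overlapped. Of the counts outside tRNA and rRNA loci, the TAS genes took 1.35% ± 0.0901 over the 8 libraries, with 1.37% ± 0.0744 in −Fe and 1.33% ± 0.111 in +Fe, and the highest library exceeded the lowest by 1.21-fold. Relative to the 325 miRNA precursors the 5 genes had 0.138 to 0.167 counts per precursor count in −Fe and 0.138 to 0.161 in +Fe.

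PPR transcripts are both targets of TAS1 and TAS2 tasiRNAs and, in Arabidopsis, known sources of secondary siRNAs of their own. The table names 9 PPR loci, a set taken up after their values were seen, and their summed counts followed those of the TAS genes most closely of the denominators tried. The TAS genes had 10.3, 9.72, 10.6 and 10.5 counts per PPR count in −Fe, against 10.7, 10.5, 9.59 and 10.5 in +Fe. The ratio thus varied by 1.11-fold over the 8 libraries (CV 3.98%), where the summed TAS CPM varied by 1.80-fold (CV 18.8%). Pearson's r with the summed TAS level over the 8 libraries was 0.98 for the summed PPR loci and 0.92 for the 325 summed miRNA precursors, so a high r was not particular to the PPR loci. Single PPR loci spanned r values from −0.12 for PPR-At1g62590 to 0.96 for PPR-At1g63080, and the median over 11116 single loci with a mean of at least 1 CPM was 0.23. Mesophyll mRNA loci did not follow the TAS genes in this way, with 10.4 to 15.0 TAS counts per count in −Fe and 9.04 to 25.1 in +Fe. The PPR genes are near-identical in places, and how shared reads were divided among them was not tested.

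**Figure D5:**
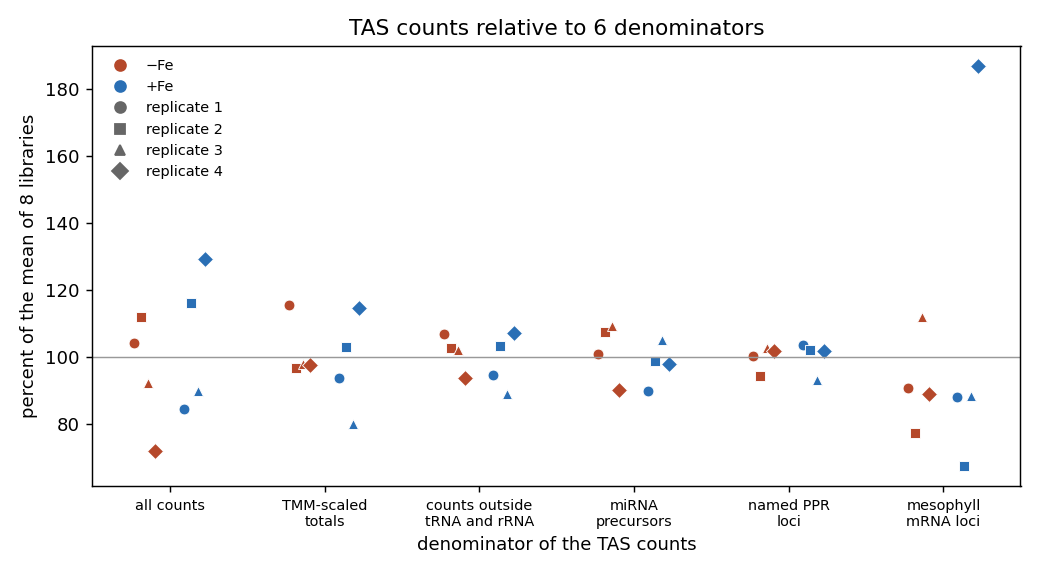
Summed counts of the 5 TAS genes in −Fe (red, left) and +Fe (blue, right) libraries divided by 6 denominators, each as a percentage of its mean over the 8 libraries, with one symbol per replicate. The spread is smallest per count at the 9 named PPR loci (CV 3.98%) and largest per count at mesophyll mRNA loci (CV 37.4%), where +Fe replicate 4 stands apart.

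The precursors of the trigger miRNAs had fewer counts than the TAS loci. Over the 8 libraries there were 2768 at MIR173, 790 at MIR390a and 2510 at MIR390b, against 5284 at TAS1b and 119967 at TAS1c. The precursors span 102 to 120 nt and the TAS genes 839 to 1034 nt, so these counts do not compare levels per length. The MIR173 precursor had 28.9, 39.2, 23.0 and 19.4 CPM in −Fe, against 28.8, 30.7, 24.4 and 36.8 CPM in +Fe (log2 fold change 0.04 ± 0.245, edgeR adjusted p = 0.998), and TAS1 and TAS2 together had 69.1 to 96.9 counts per MIR173 count in −Fe and 69.9 to 92.0 in +Fe. The MIR390a and MIR390b precursors had log2 fold changes of −0.11 ± 0.419 and −0.13 ± 0.266, and TAS3a had 3.34 to 7.74 counts per MIR390 count in −Fe and 2.71 to 4.66 in +Fe. In all 3 cases the groups overlapped. The highest MIR390b value, 44.4 CPM in +Fe replicate 4, is part of the denominator of the lowest TAS3a count per MIR390 count. TAS3a itself had 153 CPM in that library, within the range of the other +Fe libraries.

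The tested loci at biogenesis, ARF and PPR genes had from 18 counts over the 8 libraries, at a cluster in AGO1, to 7986, at PPR-At1g63130, and none of them had an unadjusted edgeR p under 0.05, where 6.69% of all tested loci did. Of 8 genes for tasiRNA biogenesis, 4 had a locus in the table (DCL1, AGO1, SGS3 and DCL4), giving 10 tested loci, of which 0 passed and 6 lie at AGO1, where clusters overlap the named locus and count some of the same reads. The locus with most counts was ath-b10r1-11541, which overlaps an end of DCL4, with 16.4 ± 3.89 CPM in −Fe and 19.9 ± 7.57 CPM in +Fe. The next was AGO1, the slicer that loads most miRNAs, with 2.86 ± 0.657 CPM in −Fe and 5.09 ± 2.91 CPM in +Fe. At the 3 ARF targets of TAS3, 0 of 5 tested loci passed, the leading ones being a pair at ARF2 with 331 and 212 counts over the 8 libraries. At the 10 PPR genes 0 of 22 tested loci passed, among them 4 pairs of a named locus and a cluster with identical counts. Among the loci there that carry a PPR name, the leading ones were PPR-At1g63130 with 79.4 ± 17.2 CPM in −Fe and 86.8 ± 8.55 CPM in +Fe (log2 fold change 0.06), and PPR-At1g63080 with 58.6 ± 13.8 CPM in −Fe and 63.4 ± 23.4 CPM in +Fe (log2 fold change 0.09). Cluster ath-b10r1-19132, at the same gene as PPR-At1g63130, came between them with 74.8 ± 15.1 CPM in −Fe and 81.9 ± 5.84 CPM in +Fe. For HTT1 and HTT2 no locus was listed. The median log2 fold change was 0.04 over the ARF loci and 0.06 over the PPR loci, beside 0.07 over all tested loci. Over the 10 biogenesis loci the median was −0.83, with 8 below 0, where 53.4% of all tested loci were above 0. The DCL4 locus, with 1753 counts, had −0.09 ± 0.294 (SE), and AGO1, with 397 counts, had −0.70 ± 0.684. The rest had 18 to 204 counts and SEs of 1.08 to 2.69, so the median rests mostly on sparsely counted loci. At 2 of the 10 biogenesis loci one condition had no counts, so their fitted values are not determined by the counts. With 3 counts in each such library the median was −0.80.

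The remaining TAS genes gave few counts, apart from TAS4, which is triggered by miR828 and acts on MYB transcription factors. The TAS4 locus had 27.6 ± 8.58 CPM in −Fe and 30.7 ± 6.05 CPM in +Fe (log2 fold change 0.02, edgeR adjusted p = 0.998). This locus spans 7584 nt, and a cluster of 358 nt within it held 2716 of its 2825 counts. The MIR828 precursor had 4 counts, all in +Fe replicate 2.

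The other TAS3 genes had only a few counts in each library. TAS3B (587 nt) had 0, 4, 4 and 13 counts in −Fe, against 18, 42, 14 and 20 in +Fe, or 0.410 ± 0.415 CPM in −Fe and 2.07 ± 1.37 CPM in +Fe. Every +Fe value was higher than every −Fe value (exact permutation p = 0.0286, the smallest that 4 against 4 libraries allow), as at 1.32% of all tested loci. The gap was narrow, from 0.988 CPM, the highest −Fe value, to 1.04 CPM, the lowest +Fe value. In the edgeR fit the log2 fold change was −1.93 ± 1.53 (adjusted p = 0.958). Cluster ath-b10r1-14227 at the same gene had 0, 13, 4 and 13 counts in −Fe and the same +Fe counts. Its log2 fold change was −1.54 ± 1.47. TAS3C (496 nt) had 17, 0, 9 and 10 counts in −Fe, against 0 in each +Fe library. A count of 0 allows up to 3 counts in a library by counting error alone (0.213 to 0.290 CPM). With 3 counts in place of each 0 in +Fe, the mean was 3.08-fold higher in −Fe, and 2.00-fold without −Fe replicate 1. These ratios leave out the spread of the −Fe values, so they are not lower limits. One −Fe library had no count either, the exact permutation p was 0.143, and the edgeR p was 0.0183 before adjustment and 0.645 after it, so a difference was not established at either gene.

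Among loci that do not overlap a TAS gene, the 3 with the pattern over the 8 libraries most like the summed TAS level were ath-b10r1-19787 (chr1:28105360-28105912, r = 0.98), ath-b10r1-1260 (chr4:5919002-5923167, r = 0.98) and ath-b10r1-14181 (chr5:19829857-19830387, r = 0.98), the last at the long non-coding RNA gene AT5G07295. The likeness was Pearson's r of log2(CPM + 1) over 8 libraries, picked as the highest of 11116 loci, of which 141 (1.27%) had an r of at least 0.9. The first of them had 44.1, 52.5, 35.7 and 24.5 CPM in −Fe, against 33.3, 50.3, 31.2 and 64.7 CPM in +Fe, with the same extremes, −Fe replicate 4 and +Fe replicate 4, as TAS1c and TAS2.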

How the data were processed

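Small RNA libraries of phloem exudate from 4 −Fe and 4 +Fe replicates were analysed, with each condition taken from the labels. The authors trimmed adapters with Cutadapt, aligned and quantified reads with ShortStack (versions not given in the sources used here), and deposited raw read counts per locus. No library column was left out (0), and 1 column of sums was not used. CPM used library totals. edgeR 4.0.16 (limma 3.58.1, R 4.3.3) fitted condition alone with TMM factors on the 17722 loci with at least 10 counts. Called loci had an adjusted p under 0.1 and changed by 0.5 or more on the log2 scale. Single values were compared by exact two-sided permutation tests over 70 arrangements, whose smallest p is 0.0286. These p-values measure the spread between the labelled biological replicates. The labels name no batch.

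The members, gene lists and tests were chosen with earlier results of these data known. Named were all TAS loci, the trigger precursors, the other TAS loci, the 2 loci with most counts per pathway group and the 3 loci most like the summed TAS level. For the PPR group these 2 were taken among the loci that carry a PPR name. The PPR denominator was added after seeing the data. Gene names and classes came from the TAIR10.1 table, and the 5 TAS genes matched it by position. TAS, trigger and target sequences were not analysed here. The scripts were tested on simulated data. Alternatives were DESeq2 1.42.0, a replicate block, DESeq2 size factors, library totals, other filters, thresholds, overlaps, lengths and denominators, and leaving out each library. Python 3.11.15 with numpy 2.4.6, pandas 2.3.3, scipy 1.17.1 and matplotlib 3.10.9 was used.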

Additional observations from a re-analysis of the deposited data

Results flagged for a closer look

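In 6 of 68 groups of 4 libraries examined, one library lay far from the other 3 by Dixon's test. Chance gives about 1 in 20 for independent groups of normally distributed values. The groups here share libraries and counts, so their number cannot be set against that rate. The summed TAS level on the TMM scale was 2944 CPM in −Fe replicate 1, above the other −Fe libraries. The share of TAS1a in the TAS counts was 11.4% in −Fe replicate 3, below the other −Fe libraries, and that of TAS3a was 6.49% in −Fe replicate 1, above them. In +Fe replicate 4 the MIR390b precursor was high, at 44.4 CPM, and TAS3a was low per MIR390 count, at 2.71. The MIR390b counts are part of the denominator of that ratio, so these flags are not separate. The TAS counts per count at the named PPR loci were 9.59 in +Fe replicate 3, below the other +Fe libraries.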

How the results depend on the processing

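In the 15 alternative fits, 0 of 10 TAS loci reached an unadjusted p under 0.05, the smallest being 0.137 (smallest adjusted p 0.758), and no log2 fold change exceeded 0.37 in size. The number of all loci called was 34 with DESeq2, 3 with the replicate block, 5 without both +Fe libraries with fewest loci (chosen after seeing the data) and 0 to 1 when a library was left out, the 1 without +Fe replicate 2. Deviations of same-numbered libraries correlated at 0.0208, 0.0194, 0.0492 and −0.00185, and those of differently numbered libraries at −0.0470 to 0.0381. These values gave no sign of pairing by replicate number, but with 4 libraries per group they cannot exclude it. With library totals the log2 fold changes of TAS1a, TAS1c, TAS2 and TAS3a reversed (−0.024, −0.18, −0.16 and −0.030). Leaving out a library gave 0.074 to 0.24 for TAS1a, 0.0082 (without −Fe replicate 1) to 0.36 (without −Fe replicate 4) for TAS1b, −0.069 to 0.13 for TAS1c, −0.029 to 0.14 for TAS2 and 0.047 to 0.26 for TAS3a. The difference of mean CPM, −Fe minus +Fe, reversed on the TMM scale for TAS1a (36.3), TAS1c (24.3), TAS2 (21.7) and TAS3a (15.9), and without tRNA and rRNA loci in the total (172, 38.7, 82.5 and 69.5). With a library left out it ran from −24.0 to 17.2 for TAS1a, −4.77 to 10.0 for TAS1b and −11.8 to 10.4 for TAS3a, and it was −0.787 at the cluster of TAS1b. The summed TAS share was 1.35% without tRNA and rRNA loci in the total, where the difference between groups became 0.0397 percentage points, and 0.515% when all 10 loci were summed. Leaving out a library moved the difference of the share, −0.0254, to between −0.0431 and −0.0045 (without +Fe replicate 4). With cluster lengths, 3 of 5 genes kept their place in the order per kb. The causes were not tested. With 4 libraries per group, differences within the 95% intervals given above were not excluded. These intervals are not limits of detection, and a true difference outside them could also have been missed.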
